A study of Homo sapiens with 18 samples.

Results

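The comparison set N4, an edited control clone, against the parental cells from which it was made. Both are HEK cells, a human embryonic kidney line grown in culture. Its members were chosen by their labels alone, as the 3 arrays labelled N4, wild type, and the 3 arrays labelled HEK parental, wild type, 6 of the 18 arrays of the study. N4 is a CRISPR control whose ATXN1L gene, which encodes the ataxin-1-like protein that binds the transcriptional repressor CIC, was labelled wild type. It is described as isogenic with the other lines, and it is 1 clone. The other 4 lines, also with 3 arrays each, were N8, a second wild-type CRISPR control, and A10, A30 and B21, in which ATXN1L was knocked out. The labels describe CRISPR treatment, puromycin selection and isolation of single colonies for every sample and do not set the parental cells apart in that text, although their name does. Apart from that editing and selection, no treatment was described beyond culture in serum-containing medium. The labels used here do not name the guide that N4 received.

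A clone grows from a single cell, so it carries the state of that cell, while a parental culture holds the descendants of many cells and averages over them. HEK cells have an unstable, rearranged set of chromosomes, and single cells of such a line can differ in how many copies of a chromosome segment they hold. A control clone goes through the same transfection, drug selection and colony growth as a knockout clone and therefore serves to show what that handling alone leaves behind. In this comparison the spread was measured between the 3 replicates of a line. With 1 clone, the spread between clones was not measured, and a difference between N4 and the parental cells is a difference of that clone.

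RNA levels were read on 1-colour Affymetrix arrays, and the deposited values are log2 signals, where 1 unit is a doubling. Array medians over all probe sets were alike, from 5.09 to 5.18. Among the 9686 genes tested, replicate arrays of N4 or of the parental cells correlated at r = 0.988 to 0.994, and arrays of N4 with parental arrays at 0.981 to 0.991, across genes. Of the 15 pairs of lines, N4 and the parental cells had the smallest median absolute difference, 0.0933, against 0.107 to 0.160 in the other pairs. The standard deviation (SD) between 3 arrays of a line had a median of 0.0945 in N4 and 0.0924 in the parental cells. One array stood apart from its line. Replicate 1 of A10, with each gene's mean over all arrays removed, correlated at 0.014 and 0.135 with the other A10 arrays and at 0.395 and 0.377 with replicate 1 of N4 and of the parental cells. It belongs to neither group compared here, but it enters the estimate of spread, so the p-values without it are given for the genes below whose call changed in its absence.

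ATXN1L, the gene edited in the knockout lines, had levels of 7.05, 7.13 and 7.15 in the parental cells and 7.10, 7.16 and 7.24 in N4. The ranges overlapped, and the difference was 0.06 ± 0.08 (standard error, SE; adjusted p = 0.816, limma). Of the markers of HEK cells, VIM, the filament protein vimentin, was at 8.63 to 8.66 in the parental cells and 8.71 to 8.85 in N4, and KRT18, a keratin, at 9.31 to 9.55 and 9.07 to 9.45. EYA1, a kidney and ear developmental factor, ranged from 7.70 to 8.17 over the 6 arrays. PAX2, a kidney transcription factor, lay at or under 5.59 in all 6, below the value of 5.6 that a gene had to exceed in at least 3 of the 18 arrays to be tested. It passed through arrays of the other lines and was tested, with a difference of −0.09 (adjusted p = 0.719, limma). Some markers of other cell types were low in both groups, at no more than 5.18 for CD14 of monocytes, 4.64 for PECAM1 of endothelium, 3.92 for KRT5 and 4.93 for KRT14 of keratinocytes. Others were higher. In all 3 N4 arrays, 3 of 8 keratinocyte, 2 of 8 endothelial, 1 of 7 fibroblast and 1 of 5 leukocyte markers exceeded 5.6. In all 3 parental arrays 3, 3, 2 and 1 did, in the same order.

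Between N4 and the parental cells, 53 of 9686 genes were called at a Benjamini-Hochberg adjusted p under 0.05, 0.547% of those tested, in a limma fit to all 18 arrays. Of these, 20 were higher in N4 (0.206%) and 33 lower (0.341%). The differences were small. CAPN6, GREM1, PTCHD1 and FENDRR differed by 0.92 to 1.14 and no other called gene by more than 0.75. The unadjusted p was under 0.05 for 1276 genes. In all 53 called genes the 3 N4 arrays lay outside the range of the 3 parental arrays, as they did in 2029 of all tested genes (20.9%). Deviations from the line means in replicate 1 correlated at r = 0.35 between N4 and the parental cells. Those in replicates 2 and 3 correlated at 0.10 to 0.17, whether or not the numbers matched. With the replicate number as a block the fit called 168 genes (1.73%), 65 higher (0.671%) and 103 lower (1.06%), among them all 53. With quantile-normalised values 54 genes were called, 27 (0.278%) in each direction (0.556% of 9710 tested), of which 44 were among the 53. Without replicate 1 of A10 the count was 116 (1.20%), which held all 53.

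The count depended on each of the 6 arrays compared. Without parental replicates 1, 2 and 3 it was 13, 30 and 15, of which 12, 27 and 14 were among the 53. Without N4 replicates 1, 2 and 3 it was 35, 9 and 18, of which 28, 9 and 17 were among them. Of the 53 genes, 8 stayed called whichever of these 6 arrays was left out. They were PTCHD1, FENDRR, HDX, RYR2 and ZNF124, all lower in N4, and SYT17, CD99 and SH3KBP1, all higher. Another 20 genes lost their call under each of the 6 omissions. Nearest to the threshold, ZNF567, SNX12 and PHF6 were called at adjusted p = 0.0491, 0.0481 and 0.0481, and KAT2A, OLFM2 and TSHZ3 were not, at 0.05005, 0.0525 and 0.0525. The last 3 passed with the replicate block (0.00885, 0.0384 and 0.0393) and without replicate 1 of A10 (0.0332, 0.0422 and 0.0422).

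**Figure D1:**
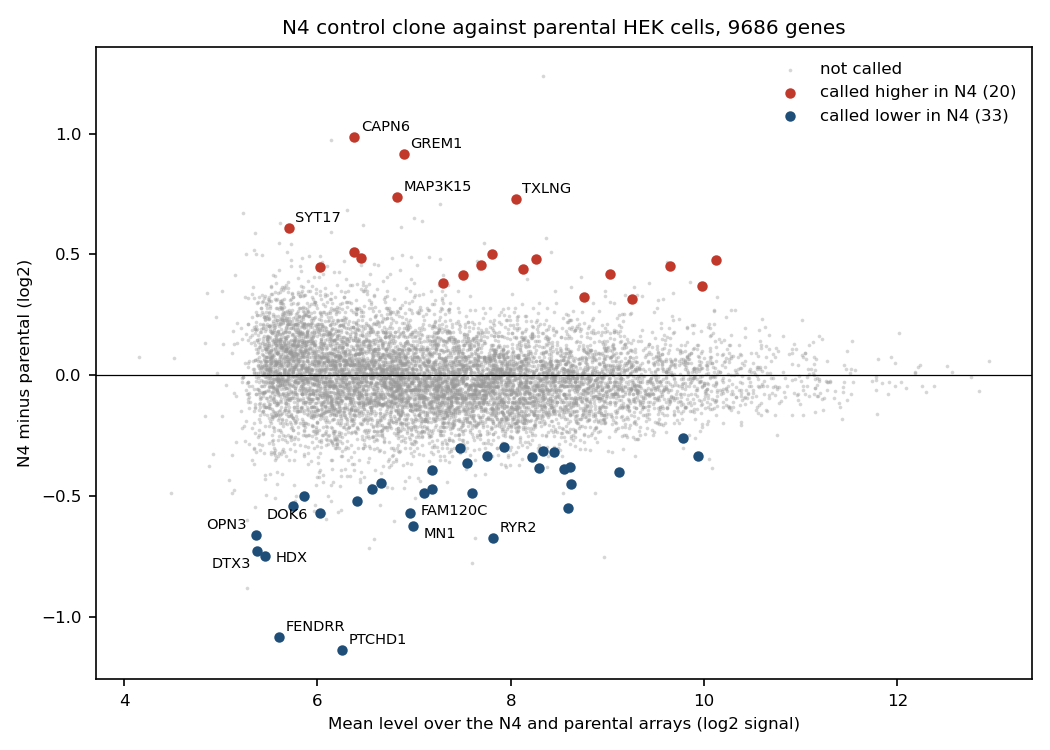
Each dot is 1 of 9686 genes, with its mean level over the 6 arrays (log2 signal) on the horizontal axis and the difference N4 minus parental (log2) on the vertical axis. Large dots are the 20 genes called higher and the 33 called lower. PTCHD1 (−1.14) and FENDRR (−1.09) are the lowest called genes and CAPN6 (0.99) and GREM1 (0.92) the highest, while the highest dot of all, at 1.24, is not called.

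Among secreted proteins and cell-surface receptors, GREM1 and LPAR3 rose in N4 and UNC5C and PDGFA fell. GREM1 (gremlin, chromosome 15), which binds bone morphogenetic proteins outside the cell and keeps them from their receptors, had levels of 6.26, 6.41 and 6.63 in the parental cells and 7.30, 7.44 and 7.31 in N4. All N4 arrays were above all parental ones, by 0.92 ± 0.15 on average, a 1.89-fold rise (adjusted p = 0.00938, limma). Leaving out parental replicate 1 or N4 replicate 2 ended its call (adjusted p = 0.0526 and 0.0642). LPAR3 (chromosome 1), a receptor for lysophosphatidic acid, was at 6.22, 6.15 and 6.0 in the parental cells and 6.59, 6.70 and 6.61 in N4, a rise of 0.51 ± 0.10 (adjusted p = 0.0293). PLPP2 (chromosome 19), a membrane phosphatase that takes the phosphate off lysophosphatidic acid and related lipids, was 0.49 ± 0.10 higher (adjusted p = 0.0418). DPP4, a surface peptidase, rose by 0.45 from levels of 5.73 to 5.88, close to the filter value. CLU, the secreted chaperone clusterin, rose by 0.38 and CD99, a surface glycoprotein, by 0.48. UNC5C (chromosome 4), a receptor for the guidance factor netrin, fell by 0.47 and PDGFA, a growth factor for mesenchymal cells, by 0.31. When each of the 6 arrays was left out in turn, CD99 kept its call throughout, UNC5C, PLPP2 and DPP4 kept it in 2 of 6 omissions, and LPAR3, CLU and PDGFA in 0 of 6 (adjusted p = 0.0526 to 0.148 for LPAR3).

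CAPN6 (chromosome X) showed the largest rise among the called genes. It encodes a calpain that lacks the catalytic cysteine of this protease family and binds microtubules. Its levels were 6.15, 5.72 and 5.80 in the parental cells and 7.17, 6.96 and 6.50 in N4. The N4 arrays were spread over 0.67 units, and the lowest still exceeded the highest parental array. The difference was 0.99 ± 0.20 (1.98-fold, adjusted p = 0.0346). The call held in 1 of the 6 omissions, that of N4 replicate 3 (adjusted p = 0.0362), and otherwise ran from 0.0526 to 0.148. MAP3K15, a kinase at the head of stress-activated MAP kinase cascades, was at 6.48, 6.45 and 6.45 against 7.24, 7.23 and 7.12, a difference of 0.74 ± 0.12 (adjusted p = 0.00902). Leaving out N4 replicate 2 ended its call, at 0.0549. SYT17, a relative of the synaptotagmins of vesicle traffic, was at 5.45, 5.29 and 5.47 in the parental cells, all under the filter value, and at 5.92, 6.05 and 6.07 in N4 (0.61 ± 0.07, adjusted p = 0.00083). Its parental levels may lie near the background of the array, so the size of that rise is uncertain. TCF4, a helix-loop-helix transcription factor, was 0.50 ± 0.10 higher (adjusted p = 0.0354), a call that ended under each of the 6 omissions. EXT1, an enzyme that extends heparan sulfate chains, was 0.45 ± 0.08 higher (adjusted p = 0.0151), and its call held only without N4 replicate 1 (0.0493).

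PTCHD1 and FENDRR fell most in N4. PTCHD1 (chromosome X), a membrane protein with the domain of the hedgehog receptor patched, was at 6.59, 7.01 and 6.89 in the parental cells and at 5.58, 5.74 and 5.75 in N4. The groups were separated by 0.84 units, and the mean fell by 1.14 ± 0.14 (2.20-fold, adjusted p = 0.00083). This gene had 2 probe sets, and the 1 with the higher mean was used. Over the 29 alternatives that gave it an adjusted p, its difference ran from −1.26 to −0.75. FENDRR (chromosome 16), a long noncoding RNA transcribed next to the forkhead gene FOXF1 and away from it, was at 6.10, 6.10 and 6.25 in the parental cells and at 5.07, 4.95 and 5.17 in N4. Its mean fell by 1.09 ± 0.09 (2.12-fold, adjusted p = 1.33e-05), which was the smallest p of all genes, and all N4 arrays were under the filter value. FOXF1 was at 6.90, 6.94 and 7.13 against 6.65, 6.68 and 6.70, a difference of −0.31 ± 0.08 that did not pass (adjusted p = 0.0718). It passed with the replicate block (0.0427) and without replicate 1 of A10 (0.0421). FOXF2 (chromosome 6), its close relative in mesenchyme, fell by 0.38 ± 0.07, from 8.86, 8.76 and 8.79 to 8.41, 8.46 and 8.40 (adjusted p = 0.0147). Without any 1 of the 6 arrays FOXF2 had an adjusted p of 0.0446 to 0.0946 and passed only without parental replicate 2.

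FENDRR and FOXF2 belonged to the same gene list and both fell, so their promoters are shown, from 250 bases before to 50 bases after the annotated start (RefSeq, GRCh38.p14). FENDRR lies at chr16:86508811-86509110 on the minus strand and FOXF2 at chr6:1389326-1389625 on the plus strand. Capitals mark GGGCGG, the core of a GC box, and GTAAACA, the core that forkhead proteins recognise, as found on the strand shown or its reverse.
FENDRR: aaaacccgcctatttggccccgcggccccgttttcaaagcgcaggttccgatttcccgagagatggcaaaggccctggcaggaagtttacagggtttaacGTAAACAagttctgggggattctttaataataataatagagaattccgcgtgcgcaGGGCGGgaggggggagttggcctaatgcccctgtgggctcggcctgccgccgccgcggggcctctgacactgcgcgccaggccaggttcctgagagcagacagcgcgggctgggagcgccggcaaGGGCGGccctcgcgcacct
FOXF2: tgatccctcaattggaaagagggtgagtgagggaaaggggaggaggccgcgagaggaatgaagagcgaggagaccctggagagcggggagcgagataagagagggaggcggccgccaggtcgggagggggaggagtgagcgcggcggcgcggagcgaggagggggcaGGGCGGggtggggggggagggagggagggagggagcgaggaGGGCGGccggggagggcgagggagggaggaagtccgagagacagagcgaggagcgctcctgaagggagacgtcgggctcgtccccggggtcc
Each window held 2 GGGCGG matches, and 45.0% of all 35116 promoter windows of this length held at least 1. The FENDRR window held 1 GTAAACA match, found in 3.4% of all windows, and the FOXF2 window held none. TATAAA, the core of the TATA box, was in neither and was in 11.5% of all windows. The 2 windows were rich in G and C, at 62.3% in FENDRR and 71.0% in FOXF2 against a median of 58.7%. A match is a string of letters and was not measured as a bound site here.

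Among the other large falls, RYR2 (chromosome 1), the calcium release channel of the endoplasmic reticulum, was well above the filter value. It was at 8.22, 8.07 and 8.19 in the parental cells and 7.65, 7.47 and 7.33 in N4 (−0.68 ± 0.10, adjusted p = 0.00611). AHCTF1, a nuclear pore protein from the same chromosome end, was at 8.85, 8.87 and 8.88 against 8.21, 8.35 and 8.39 (−0.55 ± 0.09, adjusted p = 0.0110). MN1 (chromosome 22), a transcriptional coregulator, fell by 0.62 from 7.51, 7.14 and 7.26 to 6.86, 6.65 and 6.53 (adjusted p = 0.0114). HDX, a homeobox gene, DTX3, a ubiquitin ligase of the deltex family, OPN3, an opsin, and ZNF124, a zinc finger gene, fell by 0.75, 0.73, 0.66 and 0.54. With FENDRR they were the 5 called genes with all 3 N4 arrays under the filter value, so their falls may be understated. HDX, DTX3, OPN3 and ZNF124 were tested only because their parental arrays exceeded that value, which also leaves the size of their falls uncertain. DSP, the desmosome protein desmoplakin, was among the most abundant of the called genes and fell by 0.33, from 10.08, 10.12 and 10.11 to 9.82, 9.75 and 9.74 (adjusted p = 0.0147). GLE1, which works in messenger RNA export, fell by 0.32 and DOK6, an adaptor of receptor tyrosine kinases, by 0.57. Of the 6 omissions, AHCTF1, MN1 and DTX3 kept their calls in 2, DSP in 1, and GLE1 and DOK6 in 0.

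**Figure D2:**
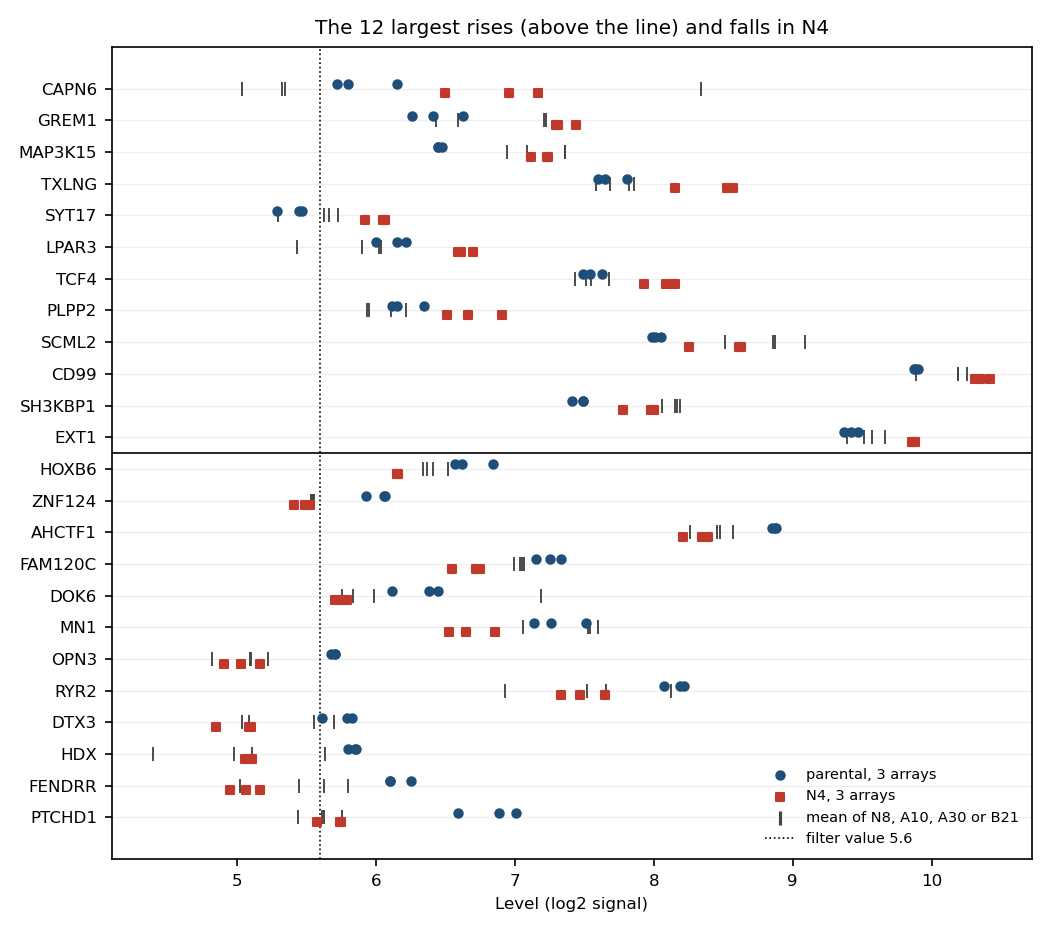
Log2 signal of the 12 called genes with the largest rises (above the horizontal line) and the 12 with the largest falls, with 3 parental arrays (circles), 3 N4 arrays (squares) and the mean of each other line (ticks). No gene shows overlap between circles and squares, and for FENDRR, HDX, DTX3, OPN3 and ZNF124 all squares lie left of the filter value of 5.6.

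EZH2, HOXB6 and HOXC4 were lower in N4 than in the parental cells, and SCML2 was higher. EZH2, the methyltransferase of Polycomb repressive complex 2, was at 9.23, 9.35 and 9.40 in the parental cells and 8.99, 8.88 and 8.90 in N4 (−0.40 ± 0.07, adjusted p = 0.00938). SCML2, a protein of the Polycomb group, rose by 0.48, from 8.05, 7.99 and 8.01 to 8.25, 8.63 and 8.61 (adjusted p = 0.0234). In N4 replicate 1 it was nearest to the parental cells. The SCML2 call held without that array (adjusted p = 0.00287) and ended under each of the other 5 omissions (0.0603 to 0.135). Of the HOX genes, which set position along the body axis, HOXB6 fell from 6.84, 6.57 and 6.62 to 6.15, 6.16 and 6.15 (−0.52 ± 0.09, adjusted p = 0.00938). HOXC4 fell from 6.89, 6.80 and 6.97 to 6.60, 6.28 and 6.44 (−0.45 ± 0.08, adjusted p = 0.0211), and LINC02381, a noncoding RNA on the same chromosome, fell by 0.45 (adjusted p = 0.0262). EZH2 and HOXB6 kept their calls in 3 of the 6 omissions, HOXC4 in 2 and LINC02381 in 0. HOXB5 (−0.52) and HOXC9 (−0.35) did not pass, at adjusted p = 0.0657 and 0.0550, and their arrays did not overlap between the groups. Both passed with the replicate block (0.0339 each) and without replicate 1 of A10 (0.0422 and 0.0408). In the other lines HOXB6 had means of 6.34 to 6.52, between N4 and the parental cells. HOXB5 had means of 5.82 to 6.06 there, near the N4 mean of 5.88. The HOX genes were looked at as a family after these values were seen. Of 23 tested, 21 had differences below 0 and 2 above, with a median of −0.15 and a range of −0.52 to 0.14. Over all 9686 genes, 5239 were below 0 and 4420 above, with a median of −0.01. With quantile-normalised values 20 of the HOX genes were below 0, with a median of −0.14.

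EPHA7 (chromosome 6), a receptor for ephrin-A ligands in cell contact, had the largest difference of all 9686 genes and was not called. It was at 7.76, 7.65 and 7.74 in the parental cells and at 8.98, 8.90 and 8.99 in N4. The 2 groups were tight and lay 1.14 apart at their nearest arrays, with a mean difference of 1.24 ± 0.37 (2.36-fold, adjusted p = 0.141, limma). The A10 arrays, at 8.23, 6.26 and 5.92, were spread far wider, with replicate 1 near the N4 level. Without that array the adjusted p was 1.36e-04, and with only the 6 arrays compared it was 4.04e-04. MIR221 (chromosome X), the gene of a microRNA, behaved in a like way, at 7.84, 8.06 and 8.07 in the parental cells and 7.21, 7.20 and 7.22 in N4. Its difference of −0.78 ± 0.19 was not called (adjusted p = 0.0772), but was with the replicate block (0.0427) and without replicate 1 of A10 (7.78e-04), which was at 7.15 against 8.22 and 8.15 in the other A10 arrays. PLBD1, a phospholipase B-like protein of lysosomes, was at 5.54, 5.69 and 5.73 against 6.50, 6.72 and 6.66 in N4, a difference of 0.97 ± 0.25 (adjusted p = 0.0845). It passed without replicate 1 of A10 (0.00687) and also without replicate 2 of A10 (0.0251), and the A10 arrays were at 6.13, 4.66 and 5.26. The fit pools the spread of all 6 lines, so for these 3 genes the arrays at issue lay in a line that was not compared. With only the 6 arrays compared, 25 genes were called (0.258%), 14 of them among the 53. These genes were chosen after their values were seen.

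The microRNA made from MIR221 shares its seed, the bases that pair with target messages, with that of the neighbouring gene MIR222, so both mature forms are shown with bases 2 to 8 in capitals (RefSeq, GRCh38.p14).
hsa-miR-221-3p: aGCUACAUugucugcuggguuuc
hsa-miR-222-3p: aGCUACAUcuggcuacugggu
Probes for MIR222 gave 6.67, 5.51 and 5.71 in the parental cells and 6.01, 5.72 and 5.76 in N4, ranges that overlap. Parental replicate 1 was the highest of the 6. The difference was −0.13 ± 0.40 (adjusted p = 0.927), and it was 0.22 without that array. Arrays of this kind read the hairpin or its longer precursor, and the mature microRNAs were not measured apart from it.

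The genes were then placed along the chromosomes. Of 316 tested genes on X, 7 were called higher and 5 lower, and of 340 on chromosome 8, 5 were called higher and 0 lower. On chromosome 13, 6 of 170 were called lower, and on chromosome 1, 6 of 928 were called lower and 1 higher. Over all 9686 tested genes, 20 were called higher (0.206%) and 33 lower (0.341%). Whether the calls are spread unevenly over the chromosomes was not tested. On chromosome 13 the median difference over 170 tested genes was −0.12, the lowest of any chromosome, with 131 genes below 0. Chromosomes 4 and 6 had medians of −0.097 and −0.095, with 276 of 345 and 381 of 488 genes below 0. On chromosome 17, with 620 genes, the median was 0.08, the highest. Windows of 41 neighbouring tested genes were then followed along each chromosome. The lowest window ran from XPO4 to RFXAP on chromosome 13, with a median of −0.21, 36 of 41 genes below 0 and 5 called lower. The medians of its 3 replicate pairs, −0.24, −0.19 and −0.22, were close to each other. The highest window began at the tip of X, from GTPBP6 to SCARNA9L, with a median of 0.24, 28 genes above 0 and 6 called higher. Its replicate pairs gave 0.19, 0.17 and 0.18. X as a whole went the other way, with a median of −0.09 and 216 of 316 genes below 0. Its lowest window, from FAM120C to PGAM4, had a median of −0.19, with 36 of 41 genes below 0 and 2 called lower. The signs of the medians of chromosomes 13 and 17 held with quantile-normalised values (−0.09 and 0.10).

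**Figure D3:**
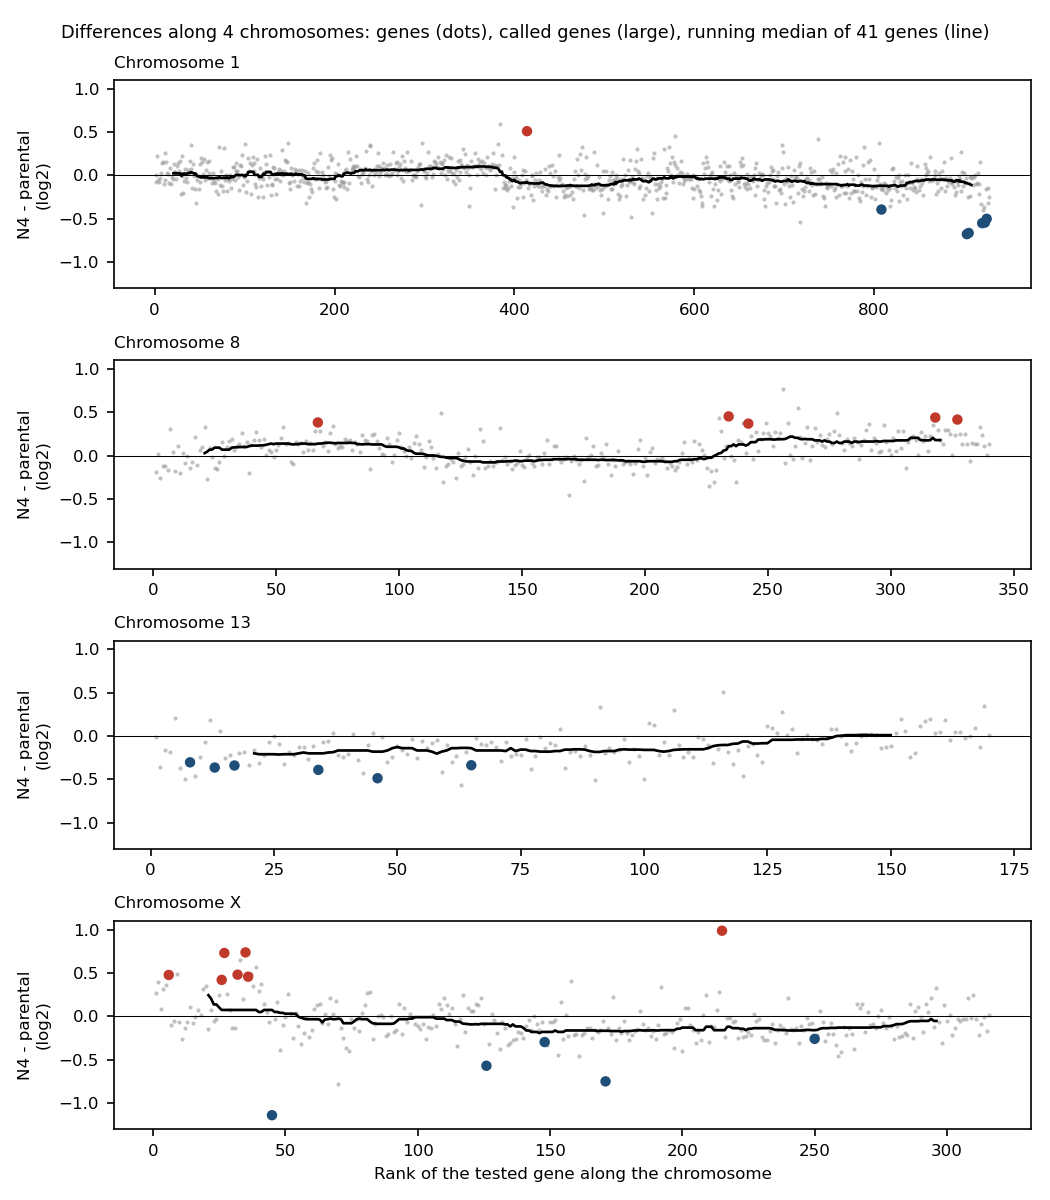
Difference N4 minus parental (log2) for each tested gene of chromosomes 1, 8, 13 and X in chromosomal order, with called genes as large dots and the running median of 41 genes as a line. The line lies below 0 over most of chromosome 13, rises above 0 in the last part of chromosome 8 and is highest at the start of X.

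Stretches bounded by called genes were followed across all lines after these values were seen. Their counts of called genes were set in part by that choice, and over all tested genes 0.547% were called. Along the end of chromosome 1, from RYR2 to ZNF496, 21 of 23 tested genes were lower in N4, with a median of −0.15 and 5 called. The medians of the other lines against the parental cells were −0.21 in N8, −0.23 in A10, −0.23 in A30 and −0.20 in B21. On chromosome 13, from MRPL57 to AKAP11, 53 of 58 genes were lower in N4, with a median of −0.20 and 6 called, and the other lines had medians of −0.26, −0.18, −0.19 and −0.32. These 6 were MRPL57, of the mitochondrial ribosome, CPAP, a centriole protein, SHISA2, which holds back Wnt and FGF receptors, USPL1, RFXAP, a subunit of the factor that drives MHC class II genes, and AKAP11, an anchor of protein kinase A. On X, from SYAP1 to SH3KBP1, 9 of 11 genes were higher, with a median of 0.42 and 5 called. The other lines had medians of 0.43, 0.39, 0.45 and 0.22. In these 3 stretches the arrays of all 5 edited lines lay on the same side of the parental arrays, which enter every one of these differences.

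The stretch on chromosome 8, from EXT1 to SLC33A2, differed from those. There 84 of 94 genes were higher in N4, with a median of 0.19 and 4 called. The N4 arrays had medians of 0.12, 0.25 and 0.22 against the parental mean, above each of the 12 arrays of the other edited lines. The medians of N8, A10, A30 and B21 were −0.04, −0.10, 0.05 and −0.07. DERL1, a protein of the degradation pathway of the endoplasmic reticulum that lies in this stretch, was at 9.77, 9.80 and 9.80 in the parental cells and 10.15, 10.19 and 10.14 in N4 (0.37 ± 0.08, adjusted p = 0.0317). The other lines had DERL1 means of 9.77 to 9.84. DGAT1, the enzyme of the last step of triglyceride synthesis, was at 7.89, 7.94 and 7.89 against 8.28, 8.28 and 8.48 (0.44 ± 0.08, adjusted p = 0.0151). With the median of its neighbours subtracted from each gene, DERL1 was 0.12 higher and DGAT1 0.26 higher, and neither passed (adjusted p = 0.488 and 0.159). Over all genes that fit called 23 (0.237%), 13 higher (0.134%) and 10 lower (0.103%), of which 16 were among the 53. GREM1 (0.94), CAPN6 (1.12), PTCHD1 (−1.21), FENDRR (−1.10), RYR2 (−0.56) and MAP3K15 (0.66) still passed. The arrays measure RNA, and the number of DNA copies was not measured.

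**Figure D4:**
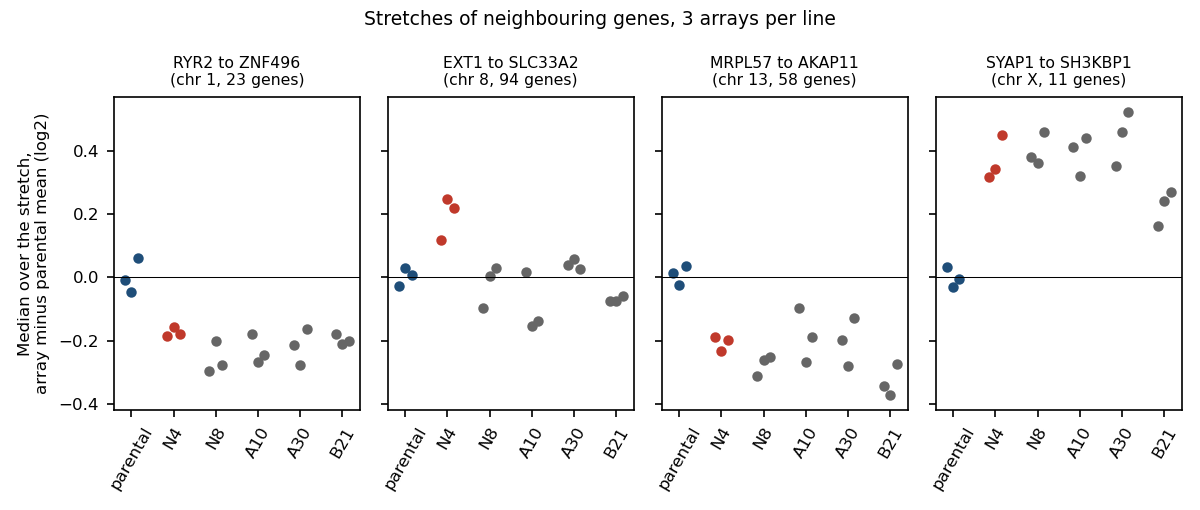
Median over each of 4 stretches of the difference between an array and the parental mean (log2), with 1 dot per array and 3 arrays per line. In the stretches on chromosomes 1, 13 and X all edited lines lie away from the parental cells on the same side as N4, and in the stretch on chromosome 8 the 3 N4 arrays (0.12 to 0.25) lie above all others.

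For single genes the other 4 edited lines showed which side of the comparison stood off. The 2 lines were each set against the mean of N8, A10, A30 and B21, and since the same arrays enter all 3 contrasts, these are not independent of the first. N4 differed from that mean in 1269 genes (13.1%) and the parental cells in 1390 (14.4%). PTCHD1 was within 0.08 of the other lines in N4 (adjusted p = 0.694), and the parental cells were 1.22 above them (5.03e-06). MAP3K15 was 0.01 from them in N4 (0.978) and 0.73 lower in the parental cells (1.15e-04). AHCTF1, RYR2, HOXC4 and SERTAD4 likewise had adjusted p of 0.298 to 0.941 in N4 and of 1.15e-04 to 0.00146 in the parental cells. HDX, OPN3, ZNF124 and DTX3 exceeded the filter value in all 3 parental arrays, in 0 N4 arrays and in 1, 0, 2 and 2 arrays of the other lines. They were tested only because the parental arrays were high, so no side is read from them. HDX and RYR2 varied between the other lines, with means of 4.40 to 5.63 and 6.93 to 8.13.

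In other genes N4 stood off and the parental cells were near the mean of the other lines. TXLNG, a binding partner of the syntaxins of membrane fusion, was at 7.60, 7.65 and 7.81 in the parental cells, 8.15, 8.57 and 8.53 in N4, and had means of 7.58 to 7.86 in the other lines. N4 was 0.68 above their mean (adjusted p = 2.88e-04) and the parental cells 0.05 below it (0.779). For TCF4 the same values were 0.52 above (6.99e-04) and 0.01 above (0.942). MN1 was 0.75 lower in N4 (5.03e-05) and 0.13 lower in the parental cells (0.345), and DSP 0.34 lower (2.13e-04) and 0.01 lower (0.907). EXT1, DPP4, PLPP2 and SNX12 had adjusted p of 1.25e-04 to 0.00263 in N4 and 0.232 to 0.583 in the parental cells. DSP, DPP4, SHISA2 and CAPN6 were uneven among the other lines. DSP had means of 9.85 in A10, near the N4 mean of 9.77, of 10.00 in N8, and of 10.30 and 10.31 in A30 and B21. DPP4 had a mean of 6.12 in A10, near the N4 mean of 6.25, and of 5.44 to 5.88 in N8, A30 and B21. SHISA2 had means of 7.53 and 7.83 in N8 and A10 and of 9.20 and 9.17 in A30 and B21, and both N4, at 8.05, and the parental cells, at 8.39, lay between them. CAPN6 had a mean of 8.34 in N8 and 5.04 to 5.35 in A10, A30 and B21, so N4, at 6.88, lay between them.

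FENDRR and GREM1 differed from the mean of the other lines on both sides, though not from each of these lines. FENDRR was 0.41 lower than their mean in N4 (adjusted p = 0.00154) and 0.68 higher in the parental cells (3.27e-05), with line means of 5.45 in N8, 5.02 in A10, 5.80 in A30 and 5.63 in B21. A10 lay at the N4 level. GREM1 was 0.49 higher in N4 (0.0134) and 0.43 lower in the parental cells (0.0248), with means of 6.43 and 6.59 in N8 and A10 and 7.21 and 7.22 in A30 and B21. The parental GREM1 mean of 6.43 lay near N8 and A10, and the N4 mean of 7.35 near A30 and B21. EPHA7 was 2.44 higher in N4 (7.56e-05) and 1.20 higher in the parental cells (0.0111), and no other line mean exceeded 6.80.

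Most gene lists held no called gene, where 0.547% of all genes were called. Over all 9686 genes tested, 4420 differences were above 0 and 5239 below. All 9 tested BMP and TGF-beta antagonists had differences above 0, with a median of 0.12, and GREM1 alone was called, followed by CHRDL1 at 0.28 (adjusted p = 0.374). No BMP or TGF-beta ligand or receptor of 6 tested was called, and BMP2 was at 7.21, 6.73 and 6.81 in the parental cells and 6.45, 6.40 and 6.29 in N4 (−0.54, adjusted p = 0.261), which passed without replicate 1 of A10 (0.0207). Of 14 BMP target genes and SMADs none was called, with DLX3, a homeobox target of BMP, nearest at −0.40 (adjusted p = 0.0676). DLX3 passed with the replicate block (0.0466) and without replicate 1 of A10 (0.0248). Of 12 hedgehog pathway and patched-domain genes, PTCHD1 alone was called, 9 had differences below 0 and the median was −0.14. GLI3, a transcription factor of the pathway, was at −0.19 (adjusted p = 0.390). Of 13 genes around FOXF1 and lateral mesoderm, FENDRR and FOXF2 were called and the median was 0.003.

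CIC and its targets, which the knockout lines were made to study, were not called in this comparison. CIC was at 6.99, 6.91 and 6.75 in the parental cells and 6.98, 6.92 and 6.89 in N4 (0.05 ± 0.08, adjusted p = 0.850), and the sign turned to −0.02 without parental replicate 3. ATXN1, the relative of ATXN1L, was at −0.20 ± 0.14 (adjusted p = 0.580). Of 11 tested targets of CIC none was called, with a median of 0.05 and a range of −0.17 to 0.32. The highest was FOSL1, a subunit of the AP-1 transcription factor, at 6.29, 6.69 and 6.64 against 6.74, 7.04 and 6.81 (adjusted p = 0.344).

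Of 16 genes of cholesterol synthesis, 13 had differences below 0 and none was called. The median was −0.12 and the range −0.25 to 0.21, with MSMO1, a sterol demethylase, at 9.79, 10.07 and 10.05 against 9.67, 9.78 and 9.72 (adjusted p = 0.266). None was called of 12 neuronal genes (median 0.13, 10 above 0), 25 Wnt pathway genes (0.05), 18 Notch genes, 20 S-phase genes (−0.06), 18 G2 and mitosis genes (−0.02), 14 p53 targets (0.02), 13 stress genes of the unfolded protein response (0.02) or 11 interferon-stimulated genes (0.05). The medians of the Notch and the G2 and mitosis lists changed sign with quantile normalisation, which moved the median of all genes from −0.01 to 0.01. Among 15 epithelial genes DSP alone was called, and among 7 calpains CAPN6 alone. With the replicate block DSG2 (0.0384), DCHS1 of the cadherin list (0.0495) and ESAM of the endothelial markers (0.0384) passed too, and DSG2 and ESAM also without replicate 1 of A10 (0.0435 and 0.0471). Markers of leukocytes, fibroblasts, keratinocytes and endothelium held no called gene among 1, 5, 3 and 4 tested. For keratinocyte markers, of which 8 of 12 had probes with a symbol, the log2 of the summed level was 9.69 to 10.00 in N4 and 9.56 to 9.66 in the parental cells, so the 3 N4 arrays lay above the 3 parental ones. The ranges of the other lists overlapped. They were 8.26 to 8.36 in N4 and 8.16 to 8.46 in the parental cells for endothelial markers (8 of 11), 8.15 to 8.36 and 8.01 to 8.21 for fibroblast markers (7 of 13), and 7.96 to 8.0 and 7.71 to 8.01 for leukocyte markers (5 of 14). The part of these cell types in the results was not tested beyond these levels, and in bulk RNA fewer cells of a type and less RNA per cell cannot be told apart.

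**Figure D5:**
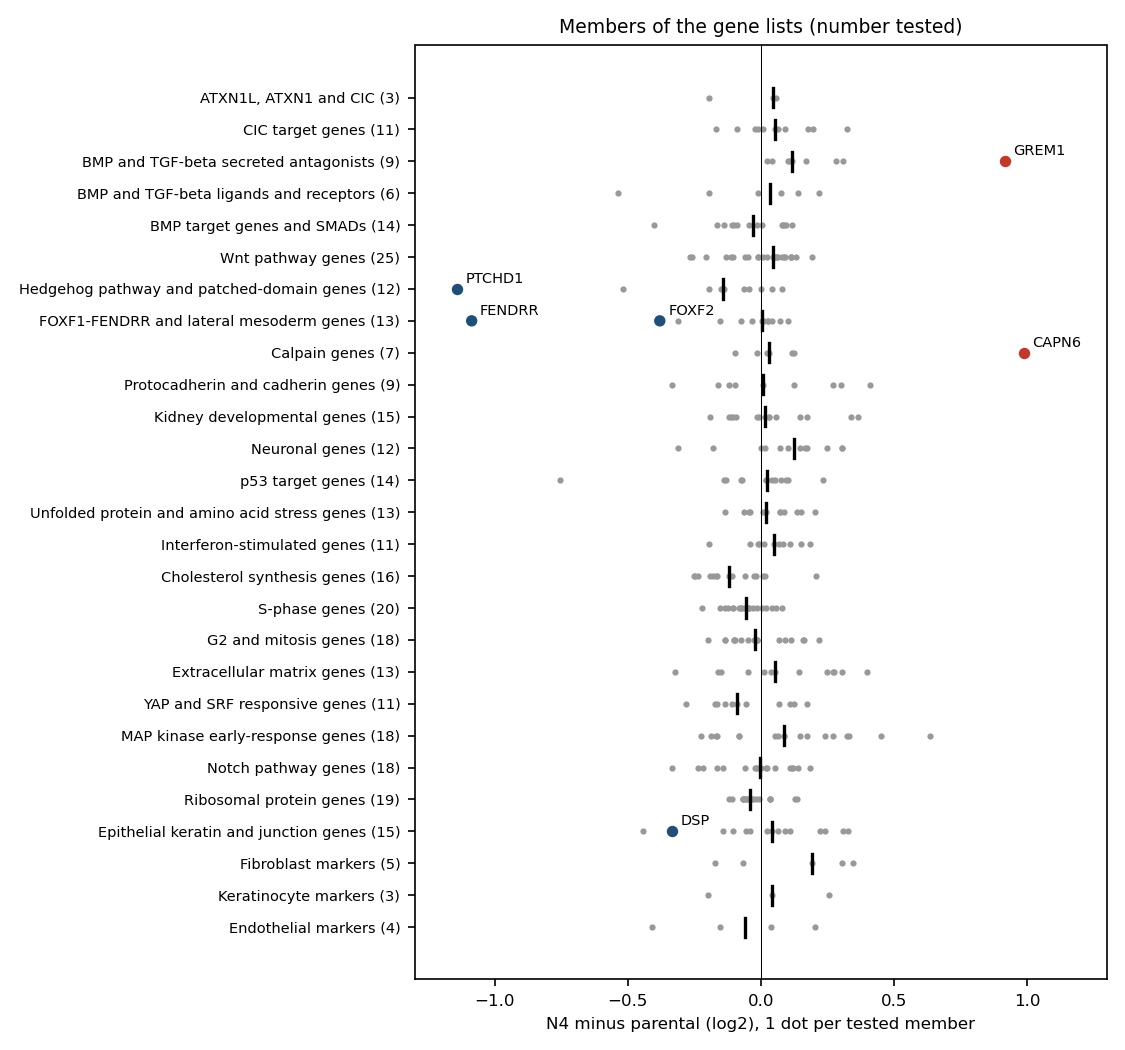
Difference N4 minus parental (log2) for each tested member of the gene lists with at least 3 tested members, with the number tested in brackets and the median as a bar. The 6 large dots are the called members, GREM1 and CAPN6 above 0 and PTCHD1, FENDRR, FOXF2 and DSP below, and the medians of the lists lie between −0.14 and 0.19.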

How the data were processed

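The log2 expression values were deposited by the authors as a table of 18 arrays. Affymetrix Expression Console was used, per the submitters' processing notes (version not given in the sources used here), and its normalisation settings were not stated. Of 53617 probe sets, 16098 had 1 gene symbol and 37519 none. A gene's probe set with the highest mean over the 18 arrays was used (14884 genes, 779 with several probe sets). A gene was tested where 3 or more arrays were above 5.6, which is percentile 40 of the named genes' values, and 9686 passed. No pseudocount was added. Names and gene order came from RefSeq (GRCh38.p14), while no source used here names the build behind the array.

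limma 3.58.1 in R 4.3.3 was fitted with 1 term per line over all 18 arrays (12 residual degrees of freedom), with Benjamini-Hochberg adjustment over all genes. The fit was tested on simulated data. The labels number the replicates without saying whether numbers share a day or batch. Deviations from the line means, over genes, correlated at 0.35, 0.17 and 0.10 for N4 and parental arrays of the same number and from −0.26 to 0.17 for other numbers, so the block was also fitted. The p-values cover the spread between replicate cultures of a line. Named genes were the 12 largest rises and falls among called genes, ATXN1L, ATXN1 and CIC, called members of the lists or else the 2 with the smallest p, the ends of the windows, and 3 genes on each side of the threshold. Others are named as members of the 53 or as chosen after their values were seen. The comparison, the lists and the rule were chosen with earlier results of these data known. Alternatives were the filter, quantile normalisation, the mean of a gene's probe sets, a variance trend, fewer lines, the block, centring on 41 neighbours, stricter thresholds and leaving out each array. The list of multidrug efflux transporters had no member with a symbol.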

Additional observations from a re-analysis of the deposited data

Results flagged for a closer look

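Probe sets without a gene symbol were outside the comparison by gene. Of 14000 tested in the same way, 4 were called in limma (0.0286%), 1 higher and 3 lower in N4, and 1104 had an unadjusted p under 0.05. The 1 called higher, probe set 17109716, was at 9.11, 9.13 and 9.16 in the parental cells and 9.62, 9.80 and 9.76 in N4, a difference of 0.59 ± 0.07 (adjusted p = 0.00256). The lowest, 17113928, fell from 6.96, 6.71 and 6.63 to 5.32, 5.33 and 5.24 (−1.47 ± 0.14, adjusted p = 5.84e-04), a larger difference than that of any tested gene with a symbol. These probe sets are not named here.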

How the results depend on the processing

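Of the 53 genes called between N4 and the parental cells, 12 remained with a minimum of 1.5-fold and 16 at an adjusted p under 0.01. The count was 26 with no filter on low signals, 25 with the 6 arrays only, 23 with neighbour centring, 168 with the replicate block, 24 with the replicate block in the 6 arrays only and 9 to 116 without 1 array. N4 against the other 4 edited lines gave 1269 calls, and 105 with the fold minimum, 546 at the stricter threshold, 1904 with the replicate block, 836 with neighbour centring and 611 to 1713 without 1 array. The parental cells against those lines gave 1390, and 115, 574, 2073, 846 and 696 to 1831 in the same order. PTCHD1, FENDRR, RYR2 and SYT17 were called under all 29 alternatives that gave them an adjusted p. The differences that changed sign were uncalled ones near 0, namely CIC (−0.02 without parental replicate 3, and −0.02 to 0.10 without 1 array), SMAD4 (−0.005 with replicates 2 and 3 only), RPL8 (−0.0348 with neighbour centring) and MIR222 (0.13 with replicates 2 and 3 only, and −0.36 to 0.22 without 1 array). The cause was not tested. The deposited table has no detection flags, so levels near 5.6 could not be told from background, and 3 arrays per line limit the precision.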
